A study of Mus musculus with 16 samples.

Results

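miR-21a is a microRNA of the mouse, made from a single hairpin, Mir21a. All reads whose insert matched this hairpin without a mismatch were collected, and it is 1 of 1087 hairpin names that were counted in the same way. It was chosen by its measured level, the reads that remained in KO cells and in cells whose Dicer bears changed catalytic sites, so its levels there are a description and were not tested. Small RNA was sequenced from mesenchymal stem cells of C57BL/6 mice, in 16 libraries, 2 for each of 8 groups. KO cells were Dicer -/- and carried mCherry, a red fluorescent protein. A further 5 groups, all Dicer -/- as well, were transfected with human Dicer bearing point changes. The changes of its catalytic sites were D1320A with D1709A in one protein (written D1320A/D1709A), D1320A alone and D1709A alone. The changes elsewhere were K70A, and Y971A with Y972A (Y971A/Y972A). hsDicer cells were Dicer -/- with unchanged human Dicer. WT cells were Dicer f/f, so with intact mouse Dicer, and carried mCherry like the KO cells. In the 6 rescued groups any Dicer activity therefore came from a transfected human protein in mouse cells, and the labels do not say how much of it each group made. The question behind the series was what each domain of Dicer contributes to the cutting of precursors in living cells.

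Dicer takes a short hairpin, the precursor microRNA, which another enzyme, Drosha, has already cut free at its base, and cuts both strands near the loop. Its RNase IIIB domain cuts the strand that carries the 5p arm and so sets the 3' end of the 5p microRNA, and its RNase IIIA domain cuts the other strand and so sets the 5' end of the 3p microRNA. D1709A changes the active site of RNase IIIB, D1320A that of RNase IIIA, and D1320A/D1709A the pair of them. The helicase domain carries the K70A change. Y971A/Y972A affects the PAZ domain, by which Dicer grips the open end of its substrate. miR-21 is abundant in fibroblast-like and tumour cells, where it is known to repress transcripts such as Pdcd4, and its 5p arm is the strand that is mostly kept.

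Mir21a lies on the minus strand of chromosome 11, at chr11:86584067-86584158 in GRCm38, inside the last annotated exon of Vmp1-201 (chr11:86583865-86585451), a transcript of the protein-coding gene Vmp1 on the same strand. Positions below are counted from 1 at the 5' end of its 92 nt. The 5p and 3p microRNAs of RefSeq are printed first, with the seed (bases 2 to 8, which pair with targets) in capitals; the arms have different seeds. They are followed by the 5p forms of the reads that the results turn on, which share their first base and so their seed, and in which capitals mark bases beyond the end most used in WT.
miR-21a-5p: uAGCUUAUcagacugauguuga
miR-21a-3p: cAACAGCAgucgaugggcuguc
22-nt form: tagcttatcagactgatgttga
23-nt form: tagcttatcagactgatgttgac
24-nt form: tagcttatcagactgatgttgacT
27-nt form: tagcttatcagactgatgttgacTGTT
28-nt form: tagcttatcagactgatgttgacTGTTG

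In WT the most used ends were position 18 to position 40 for the 5p arm, which is the 23-nt form at chr11:86584119-86584141, 1 base longer than the RefSeq entry of 22 nt. For the 3p arm they were positions 56 to 77, at chr11:86584082-86584103. These are called the usual ends. The base at position 41 is a T, so the 24-nt form reads the same whether its last base came from the hairpin or was a U added to the 23-nt form; these data cannot tell the origins apart.

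The libraries held 10877381 to 21768558 reads, of which 10331036 to 20502254 had an insert of 15 nt or more, and levels are given as CPM, reads per 1000000 of these inserts. Reads on miRNA arms numbered 46820 (KO replicate 2) to 8195383 (WT replicate 1). All replicate 1 libraries were read for 41 nt and all replicate 2 libraries for 51 nt, so a replicate number also marks a sequencing length. The labels do not say whether replicates were separate cultures, so p-values measure only the spread between libraries. Reads that matched mouse Dicer1 transcripts stood at 0.0968 and 0.0626 CPM in KO and at 0 and 0.0488 CPM in WT. The rescued groups with the highest values were K70A (139.8 and 12.7 CPM), D1320A (22.1 and 16.4 CPM) and Y971A/Y972A (0.170 and 13.1 CPM). Which part of the gene was deleted is not stated and the source of these reads was not tested, so they check nothing. In WT, 5 of 6 listed mesenchymal arms were counted, and they summed to 8513 and 9580 CPM. The 4 blood arms counted of 7 summed to 0 and 0.780 CPM in WT, and 1 epithelial arm of 5 and 2 pluripotent arms of 7 were counted and stood at 0 in WT. Over all libraries the highest sums were 14.7 CPM for blood, 5.47 CPM for epithelial and 59.4 CPM for pluripotent arms, and the mesenchymal sum ran from 3.40 to 9580 CPM. Listed arms that were not counted had no read assigned under that name in any library. Some arms are listed under alternative names, so the listed totals exceed the number of distinct arms.

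Some miR-21a-5p was present in every library, and in KO and D1320A/D1709A cells, which lack both cuts, it stood far below WT but was still counted at 13042 reads or more. KO libraries held 3274 and 817 CPM (33822 and 13042 reads). D1320A/D1709A libraries held 2583 and 1387 CPM, D1320A libraries 5038 and 2964 CPM, and D1709A libraries 1025 and 702 CPM. K70A libraries held 47104 and 17482 CPM and Y971A/Y972A libraries 16782 and 3481 CPM. In each of these groups the replicate 1 library was the higher. hsDicer libraries held 56011 and 14247 CPM, and WT libraries 61379 and 40765 CPM. From low to high, the means were those of D1709A (864 ± 228 CPM), D1320A/D1709A (1985 ± 846), KO (2045 ± 1737), D1320A (4001 ± 1466), Y971A/Y972A (10131 ± 9405), K70A (32293 ± 20946), hsDicer (35129 ± 29532) and WT (51072 ± 14577; SD, n = 2 each). Among neighbours in that order, the libraries of K70A and Y971A/Y972A did not overlap, nor did those of D1320A/D1709A and D1709A; all other neighbouring groups overlapped. The levels above, and the shares and ranks taken from them below, count reads of 18 to 26 nt only. Longer reads that ended at position 44 or 45 stood at 2.52 and 596 CPM in KO. They stood at 1106 and 726 CPM with D1320A/D1709A, 583 and 405 CPM with D1709A, and 257.5 and 322.9 CPM with hsDicer. With D1320A they stood at 198 and 392 CPM, with K70A at 55.8 and 353 CPM, and in WT at 0.173 and 40.7 CPM. Y971A/Y972A libraries held 1304 and 540 CPM of them, a mean of 922 CPM beside 916 CPM with D1320A/D1709A. With reads of 15 to 30 nt and up to 2 unmatched 3' bases, D1320A/D1709A was above KO (log2 level over hsDicer -3.93 and -4.29). The order of these groups is thus not settled. Because each library is a bulk RNA sample, fewer cells that hold miR-21a and fewer molecules per cell cannot be told apart.

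**Figure D1:**
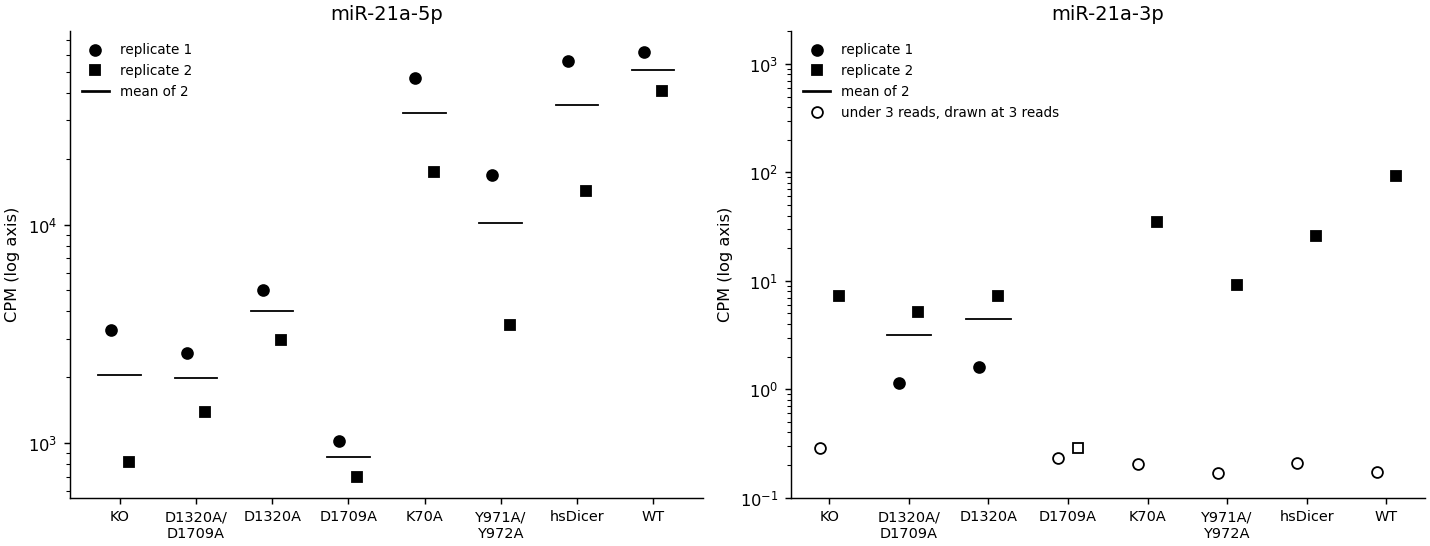
Levels of miR-21a-5p (left) and miR-21a-3p (right) in CPM on log axes, 1 point per library and a bar at the mean of 2 where both libraries held 3 reads or more. The 5p arm lies between 702 and 5038 CPM in KO and the catalytic mutants and between 3481 and 61379 CPM in the other groups, and the 3p arm of replicate 1 libraries is at or under 24 reads throughout.

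Set against hsDicer, whose background all mutants share, the mean 5p level was 5.82% in KO, 5.65% with D1320A/D1709A, 11.4% with D1320A and 2.46% with D1709A. Within replicate numbers the KO level was 5.84% and 5.73% of hsDicer. It was 4.61% and 9.74% with D1320A/D1709A, 8.99% and 20.8% with D1320A, and 1.83% and 4.93% with D1709A, so D1320A was above D1709A and the others in both. As a share of the library's own miRNA reads the picture turned round for some groups. miR-21a made up 21.2% and 28.1% of miRNA arm reads in KO, 32.7% and 39.1% with D1320A/D1709A, 10.9% and 13.7% with D1320A and 1.38% and 1.88% with D1709A. It made up 15.2% and 8.57% with K70A, 6.50% and 5.23% with Y971A/Y972A, 14.7% and 9.90% with hsDicer, and 12.96% and 10.9% in WT. In KO and D1320A/D1709A, where miRNA reads were few, miR-21a thus held a larger share than in any other group, and with D1709A a smaller one.

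Among the 23 5p arms with 1000 CPM or more on average in hsDicer cells, miR-21a-5p kept one of the higher shares of its hsDicer level where RNase IIIB was absent or changed. It ranked 3rd in KO, behind miR-125a-5p (17.3%) and let-7i-5p (10.2%), and the median of the 23 arms was 0.871%. Both arms ahead of it rest on KO replicate 1, with 955 and 34.4 CPM in replicates 1 and 2 for miR-125a-5p, and 1440 and 22.1 CPM for let-7i-5p. It ranked 2nd with D1320A/D1709A, behind miR-30a-5p (9.07%), with a median of 0.485%, and 4th with D1709A, with a median of 0.800%. There miR-30a-5p rests largely on D1320A/D1709A replicate 1, with 4640 reads of up to 36 nt from its 5p start, against 247 in replicate 2. With D1320A it ranked 18th, and the median there was 18.8%, above its 11.4%. The arms next above it with D1320A were miR-183-5p (12.6%), miR-28a-5p (12.8%) and let-7d-5p (13.01%), and those next below were miR-125b-5p (8.30%), let-7a-5p (7.49%) and miR-7-5p (7.41%). It ranked 12th with K70A, 17th with Y971A/Y972A and 11th in WT. In single replicates its rank was 3 and 1 in KO, 2 and 3 with D1320A/D1709A, 18 and 16 with D1320A, and 5 and 1 with D1709A. Since miR-21a was chosen for this residue, the ranks describe it and support nothing further. The 3p arm never reached 1000 CPM and has no rank.

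**Figure D2:**
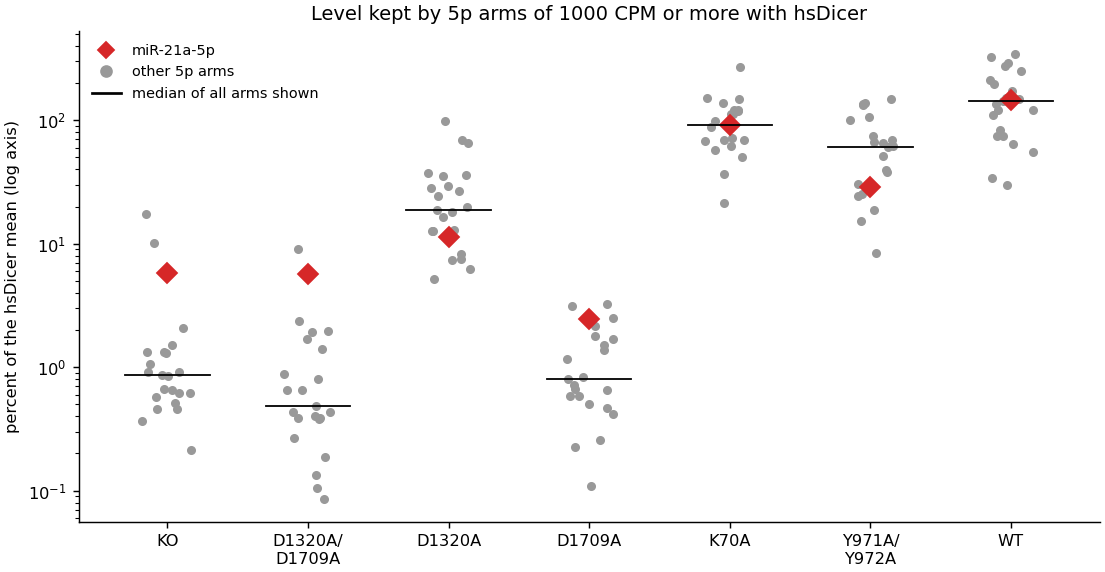
Mean level of each of the 23 5p arms as a percent of its hsDicer mean, on a log axis, with miR-21a-5p as a red diamond and the median of the arms as a bar. The diamond lies above the median in KO, D1320A/D1709A and D1709A and below it with D1320A and Y971A/Y972A.

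The KO reads of miR-21a-5p were compared with the WT library of the same replicate number arm by arm, as a description. In replicate 1, KO held 3.19% of the WT reads of miR-21a-5p, whereas 101 other arms with 2000 or more WT reads had a median of 0.281% (quartiles 0.225% and 0.346%), and 98 of them were below miR-21a-5p. In replicate 2, KO held 1.56%, against a median of 0.392% over 126 arms (quartiles 0.190% and 0.850%), of which 106 were below. Whether reads of one library are present in another was not tested here.

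The 3p arm, the strand that is mostly discarded, was scarce. The libraries of replicate 1 held 0 reads of it in KO, 19 with D1320A/D1709A, 24 with D1320A, 0 with D1709A, 1 with K70A, and 0 with Y971A/Y972A, with hsDicer and in WT. A count of 0 allows up to 0.170 to 0.290 CPM in those libraries (3 reads; counting error only). The libraries of replicate 2 held 116 reads in KO, 99 with D1320A/D1709A, 88 with D1320A, 2 with D1709A, 481 with K70A, 149 with Y971A/Y972A, 483 with hsDicer and 1894 in WT. In hsDicer and WT cells 3p reads were thus found in replicate 2 alone, at 25.7 CPM with hsDicer and 92.4 CPM in WT. In replicate 2 few of the 3p reads of KO, D1320A/D1709A and D1320A libraries were the usual microRNA. Reads with both ends within 2 nt of the usual 3p ends numbered 4 of the 116 in KO, 0 of 99 with D1320A/D1709A, 0 of 88 with D1320A and 2 of 2 with D1709A. They were 481 of 481 with K70A and 47 of 149 with Y971A/Y972A, against 448 of 483 with hsDicer and 1815 of 1894 in WT. In replicate 1 they were 19 of 19 with D1320A/D1709A and 0 of 24 with D1320A. One library stood apart: D1320A/D1709A replicate 1 held 3622 reads that start at position 56, end at position 76 and carry 1 untemplated A, against 0 in its other replicate and at most 303 in any other library. These reads do not match the hairpin whole and are outside the counts above.

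Nearly all 5p reads started at position 18. In reads of 18 to 26 nt this start took 99.93% and 98.996% in KO, 99.995% and 98.96% with D1320A/D1709A, 97.5% and 99.6% with D1320A and 99.9% and 99.9% with D1709A. It took 99.7% and 99.6% with K70A, 97.7% and 99.5% with Y971A/Y972A, 99.4% and 99.3% with hsDicer, and 99.3% and 99.4% in WT. The 5' end, which Drosha sets, was therefore alike to within 3 percentage points in all 16 libraries.

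The 3' end, on the side that RNase IIIB cuts, differed widely. Among reads of up to 36 nt from the 5p start, the length seen whole in both replicates, those that ended at the usual end or before it were 17.2% and 8.06% in KO, 4.75% and 7.23% with D1320A/D1709A, and 12.1% and 8.999% with D1709A. They were 78.8% and 62.4% with D1320A, 78.9% and 76.9% with K70A, 54.4% and 48.3% with Y971A/Y972A, 82.0% and 71.5% with hsDicer, and 83.8% and 78.6% in WT. All libraries without an active RNase IIIB thus lay under 18%, and all libraries with one, D1320A included, lay above 48%. The rest ended past the usual end. The 24-nt form, ending at position 41, took 82.7% and 40.6% in KO, 61.9% and 52.5% with D1320A/D1709A, and 42.1% and 45.5% with D1709A. It took 15.8% and 22.8% with D1320A, 20.5% and 20.6% with K70A, 36.9% and 35.4% with Y971A/Y972A, 17.6% and 25.6% with hsDicer, and 16.2% and 21.3% in WT. The mean length was 23.7 and 25.7 nt in KO, 25.3 and 25.2 nt with D1320A/D1709A, 23.1 and 23.6 nt with D1320A, 25.3 and 25.6 nt with D1709A, 23.15 and 23.11 nt with K70A, 23.82 and 23.91 nt with Y971A/Y972A, 23.01 and 23.23 nt with hsDicer, and 22.94 and 22.97 nt in WT. Y971A/Y972A libraries were thus above KO replicate 1.

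A second cluster of ends, 4 and 5 nt past the usual end, made the 27-nt and 28-nt forms. These took 0.0768% and 39.8% in KO, 28.5% and 33.3% with D1320A/D1709A, 35.1% and 33.8% with D1709A, and 3.76% and 11.5% with D1320A. With K70A they took 0.118% and 1.98%, with Y971A/Y972A 7.10% and 13.2%, with hsDicer 0.458% and 2.21%, and in WT 0.000283% and 0.0997%. Both libraries of D1320A/D1709A and of D1709A held them at 28.5% of the reads or more. KO replicate 1 was the exception among cells without an active RNase IIIB: almost all of its reads past the usual end were the 24-nt form, and the cause was not tested.

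**Figure D3:**
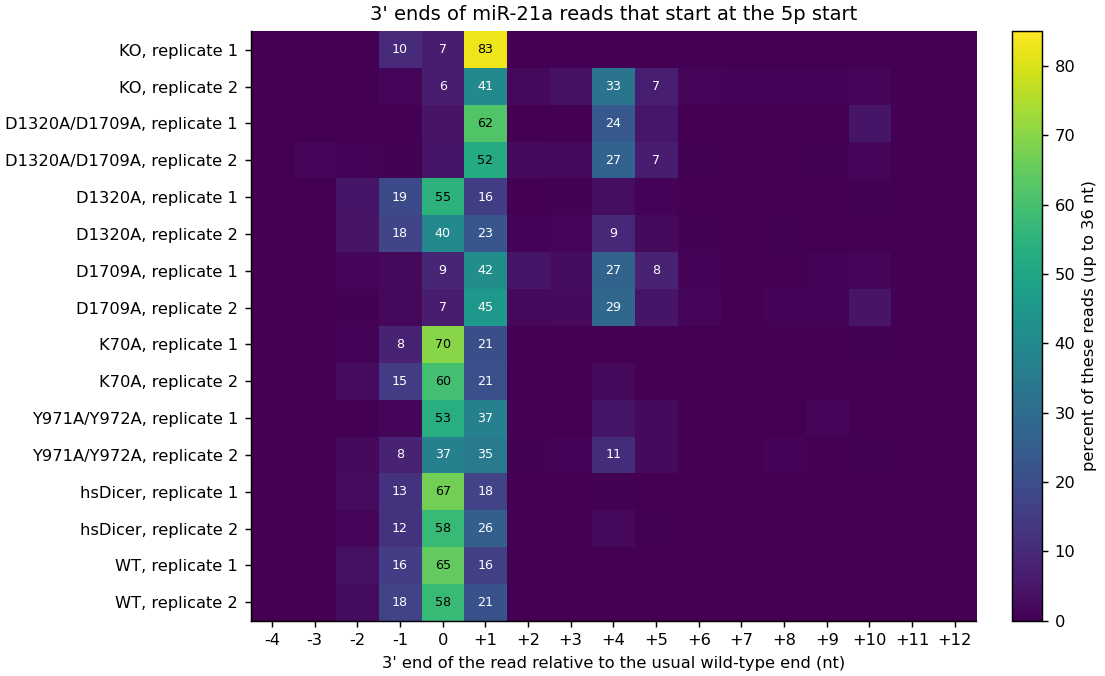
Where miR-21a reads from the 5p start end, as a percent of those of up to 36 nt in each library (rows), by distance in nt from the usual WT end (columns); values of 5% or more are printed. WT, hsDicer, K70A and D1320A libraries peak at 0, while KO, D1320A/D1709A and D1709A libraries peak at +1, with a further peak at +4 in all of these but KO replicate 1.

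Split by end, the groups differed far more in one class of reads than in the other. Reads that ended at or before the usual end stood at 565 and 121 CPM in KO, 184 and 158 CPM with D1320A/D1709A, 4153 and 2122 CPM with D1320A, and 201 and 108 CPM with D1709A. In hsDicer cells they made up 46123 and 10445 CPM, and in WT 51447 and 32056 CPM. D1320A libraries, in which RNase IIIB is intact, were 20.3-fold above D1709A libraries on these means, and 20.7-fold and 19.6-fold within replicates 1 and 2. They were 9.16-fold above KO, and 7.36-fold and 17.6-fold within replicates. Reads that ended past the usual end showed no such gap. They stood at 2712 and 1378 CPM in KO, 3693 and 2019 CPM with D1320A/D1709A, 1116 and 1279 CPM with D1320A, and 1460 and 1093 CPM with D1709A. The D1320A mean was 0.938 times the D1709A mean and 0.586 times the KO mean. In hsDicer cells these longer reads made up 10146 and 4156 CPM, and in WT 9932 and 8749 CPM. Against hsDicer, KO kept 1.21% of the reads that ended at or before the usual end and 28.6% of those that ended past it. The same shares were 0.604% and 39.9% with D1320A/D1709A, 0.546% and 17.8% with D1709A, and 11.1% and 16.7% with D1320A. Most reads from the 5p start in KO, D1320A/D1709A and D1709A libraries thus ended past the usual end, and most of those in D1320A libraries did not. Against WT, KO kept 0.821% of reads ending at or before the usual end, which was 1.10% and 0.377% within replicates, and 21.9% of reads ending past it.

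**Figure D4:**
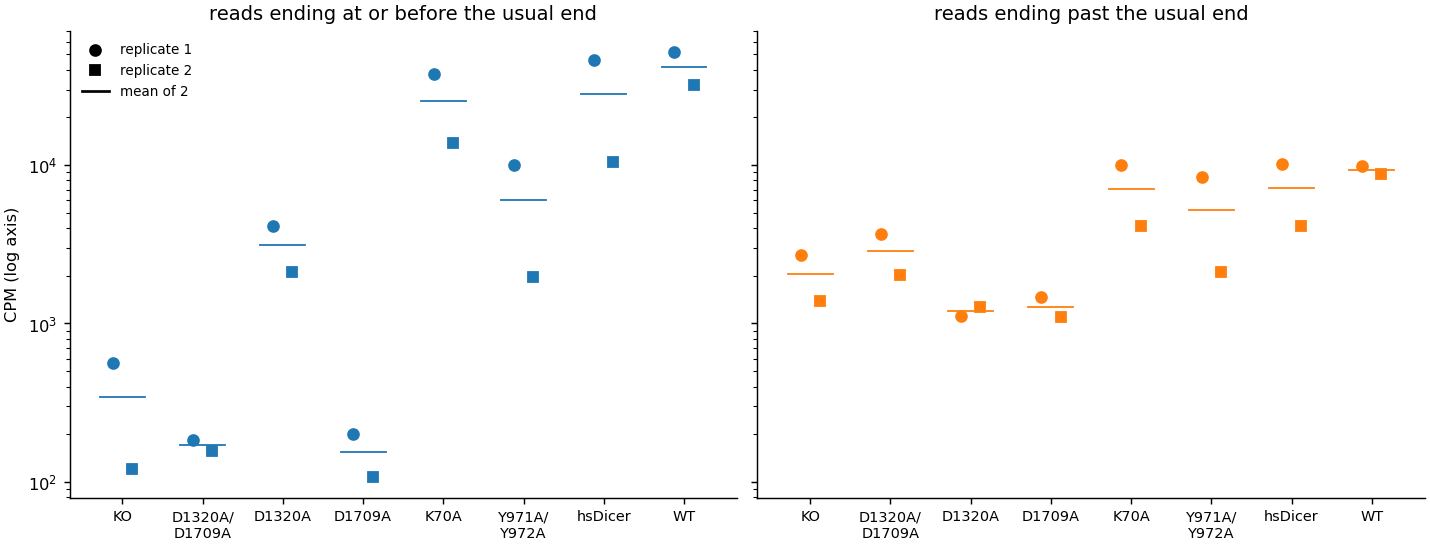
CPM, on a shared log axis, of reads from the 5p start of up to 36 nt that end at or before the usual WT end (left) or past it (right), 1 point per library and a bar at the mean of 2. On the left D1320A libraries (4153 and 2122 CPM) lie apart from those of KO, D1320A/D1709A and D1709A (108 to 565 CPM), and on the right these 4 groups share the range 1093 to 3693 CPM.

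The same share was taken for the single-copy 5p arms among those of 1000 CPM or more with hsDicer, in each library where they had 100 or more reads. These are descriptions, and no difference between arms was tested. With D1320A it was 21.2% and 37.6% for miR-21a, against medians of 1.24% and 2.11% over 13 other arms, all of which were lower. In KO it was 82.8% against a median of 0.0% over 11 arms, 9 of them lower, in replicate 1, and 91.9% against 33.3% over 10 arms, all lower, in replicate 2. With D1320A/D1709A it was 95.3% against 1.14% over 7 arms and 92.8% against 43.1% over 11 arms, and with D1709A 87.9% against 6.58% over 11 arms and 91.0% against 27.7% over 7 arms. With hsDicer it was 18.03% and 28.5%, against medians of 0.0123% and 0.680%, and in WT 16.2% and 21.4%, against 0.00990% and 0.414%, over 13 arms each. Some arms lay above miR-21a: miR-31-5p did so with D1709A (99.5% and 97.9%), hsDicer (44.6% and 41.6%) and in WT (47.9% and 38.4%), and miR-183-5p with D1320A/D1709A (98.6% and 94.2%). With K70A, miR-31-5p (57.8% and 34.2%) and miR-183-5p (55.2% and 38.6%) were above miR-21a (21.1% and 23.1%). In KO replicate 1, miR-30a-5p (97.7%) and let-7i-5p (95.3%) were above it. Others were above it in replicate 1 but not in replicate 2. These were miR-28a-5p in WT (66.2% and 4.65%) and miR-182-5p with hsDicer (26.7% and 12.5%). With Y971A/Y972A, miR-182-5p (48.9% and 2.98%) was above the 45.6% of miR-21a in replicate 1. With D1709A replicate 1, miR-183-5p was at 88.8%, and it had only 52 reads in replicate 2. With D1709A the reads of miR-31-5p that ended 4 nt or more past were 99.1% and 97.3%, against 38.3% and 41.5% for miR-21a. The arms above miR-21a were named after their values were seen. The long 3' end of miR-21a was thus present in cells with full Dicer activity as well, through the 24-nt form. Counted from position 42 on instead, a choice made after the values were seen, it was 0.0857% and 51.4% in KO, 33.4% and 40.3% with D1320A/D1709A, 5.39% and 14.8% with D1320A, and 45.8% and 45.5% with D1709A. In hsDicer libraries it was 0.458% and 2.85%, above KO replicate 1, and in WT libraries 0.000942% and 0.136%.

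Untemplated bases, which terminal transferases are known to add to finished microRNAs, were counted on reads from the 5p start with up to 28 matched nt. A single added A was carried by 1.43% and 5.57% of reads in KO, 0.266% and 3.59% with D1320A/D1709A, 13.3% and 9.68% with D1320A, and 5.01% and 3.81% with D1709A. It was carried by 12.5% and 7.69% with K70A, 12.2% and 9.42% with Y971A/Y972A, 16.9% and 13.7% with hsDicer, and 9.90% and 14.3% in WT. Libraries with an active RNase IIIB held it in at least 7.69% of reads and the others in at most 5.57%. In D1320A, K70A, Y971A/Y972A, hsDicer and WT libraries, 82.5% to 99.9% of the added A stood after position 40. With D1709A 31.2% and 22.9% did, and the range in KO and D1320A/D1709A libraries was 27.9% to 95.01%. The shares with an added A are of all reads from the 5p start, and few of those ended at position 40 without an active RNase IIIB. Such ends took 4.62% to 9.07% of reads of up to 36 nt there, and 36.9% to 69.8% in the other libraries. The added A was not compared per read that ended at position 40. A single added C reached 10.9% (Y971A/Y972A replicate 1) and a single added G 9.85% (K70A replicate 2), and both varied among groups with an active RNase IIIB. The C stood at 0.241% and 0.0765% with D1320A and at 9.21% and 5.46% with hsDicer, and the G at 8.40% and 9.85% with K70A and at 1.27% and 1.53% with hsDicer; these differences were not tested.

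Reads that ran well past a cut site were rarer. Reads that started within 2 nt of the 5p start and ended 5 nt or more past the usual end, called 5p-extended, stood at 0.484 and 218 CPM in KO, 381 and 233 CPM with D1320A/D1709A, 83.0 and 131 CPM with D1320A, and 186 and 153 CPM with D1709A. K70A libraries held 207 and 84.996 CPM, Y971A/Y972A libraries 704 and 161 CPM, hsDicer libraries 0.624 and 125 CPM, and WT libraries 0.0578 and 20.4 CPM. The highest library was thus one of Y971A/Y972A, and the lowest of each replicate number was WT.

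A piece with the ends of a single cut was found with D1320A. A precursor cut by RNase IIIB alone leaves, beside the 5p microRNA, a piece that runs from position 41 through the loop to the usual 3p end at position 77, which is 37 nt long. Reads with exactly these ends numbered 682 and 340 with D1320A (45.2 and 27.9 CPM), 1 in hsDicer replicate 1 and 0 in the other 13 libraries. In replicate 1 such an insert is seen with only 4 adapter bases after it, fewer than the 5 asked for elsewhere, so these counts accept 1 adapter base or more, a choice made after the values were seen. All reads that reached the usual 3p end from 5 nt or more before the usual 3p start, called 3p-extended and counted with the same tolerance, numbered 776 and 521 with D1320A, against 0 and 200 in KO, 0 and 7 with D1320A/D1709A, 0 and 0 with D1709A, 0 and 8 with K70A, 0 and 45 with Y971A/Y972A, 1 and 0 with hsDicer, and 0 and 34 in WT. The mirror piece, which a cut by RNase IIIA alone would leave, runs from position 18 to position 55 and is 38 nt long. With exactly these ends 240 reads were found in D1709A replicate 1 (18.8 CPM) and 0 in the other 15 libraries, D1709A replicate 2 included, so it was not repeated between replicates. Reads that lay in the loop alone numbered 0 in all 16 libraries. The stretch between the usual ends, positions 41 to 55, is only as long as the shortest insert kept, 15 nt. The gel slice also began at 15 nt, so this count could hardly find a freed loop and says little about it.

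Uncut precursor could be seen only in part. From the usual 5p start to the usual 3p end the hairpin spans 60 nt, more than the 50 nt to which the gel was cut, per the labels' protocol. Reads from the 5p start in which no adapter was reached were counted where they matched the hairpin over the whole read. That length is 41 nt in replicate 1 and 51 nt in replicate 2, so they ran through the loop into the 3p arm. Where they end is unknown. They stood at 0.194 and 1137 CPM in KO, 230 and 297 CPM with D1320A/D1709A, 532 and 355 CPM with D1320A, and 344 and 402 CPM with D1709A. K70A libraries held 66.6 and 84.4 CPM, Y971A/Y972A libraries 0.170 and 74.5 CPM, hsDicer libraries 8.39 and 490 CPM, and WT libraries 0.116 and 116 CPM. Of all reads from the 5p start they were 0.00591% and 42.8% in KO, 5.59% and 11.9% with D1320A/D1709A, 9.17% and 9.43% with D1320A, and 17.1% and 25.1% with D1709A. In hsDicer libraries they were 0.0149% and 3.24%, and in WT libraries 0.000188% and 0.283%. Both libraries of each catalytic mutant held them at 5.59% or more. KO replicates differed the most: replicate 1 held 2 such reads and replicate 2 held 18158, and the cause was not tested.

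**Figure D5:**
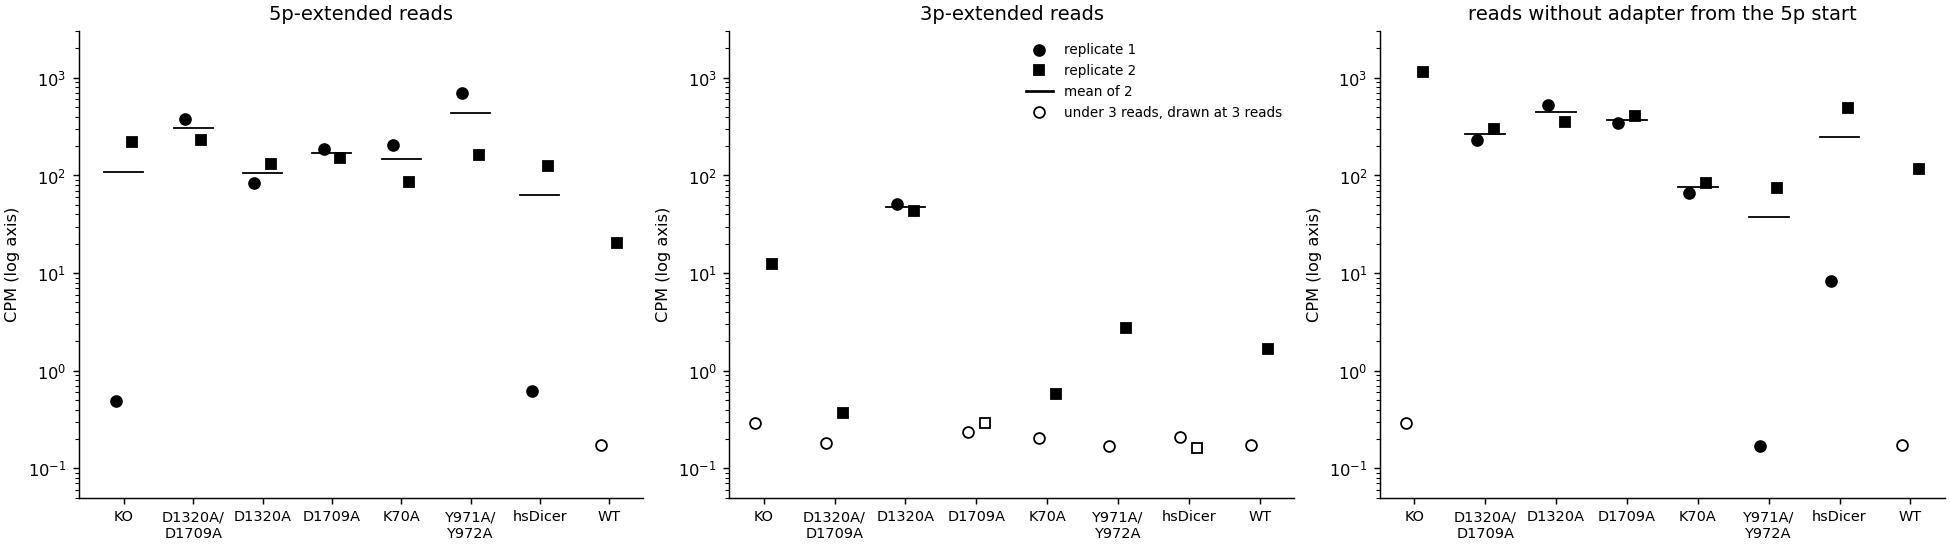
CPM on log axes of 5p-extended reads (left), 3p-extended reads with 1 adapter base or more (middle) and reads without adapter from the 5p start (right), 1 point per library. The middle panel shows both D1320A libraries at 51.4 and 42.8 CPM and every other library at 12.5 CPM or less.

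The mutants outside the catalytic sites were tested, since their levels did not choose miR-21a. K70A against hsDicer asked whether the helicase change alters its processing. miR-21a-5p differed by -0.12 on the log2 scale (SE 0.78, 95% interval -1.67 to 1.43), with an adjusted p of 1 by edgeR's quasi-likelihood test with Benjamini-Hochberg adjustment. By that test 0 of 539 arms were called (0%), with 2 at an unadjusted p under 0.05, and DESeq2 called 16. The level was lower with K70A in replicate 1 (84.1% of hsDicer) and higher in replicate 2 (122.7%). Leaving out 1 library turned the direction: the difference was 0.42 without K70A replicate 2 and 1.18 without hsDicer replicate 1. The ends did not differ beyond the spread between libraries either. The usual 3' end took 70.2% and 60.9% of 18 to 26 nt reads with K70A, and 67.3% and 59.2% with hsDicer (exact 2-sided permutation test, p = 0.667). The exact Clopper-Pearson 95% interval of this share was widest in D1709A replicate 2, at 10.8% to 12.2%, which is small beside the spread between libraries. It takes each read as a separate molecule, which reads are not, so it covers counting error of reads only. With 2 against 2 libraries the permutation test cannot go below 0.333, and adjusted over its 8 uses here no p was under 0.889.

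Y971A/Y972A against hsDicer asked the same of the PAZ domain. miR-21a-5p was at 28.8% of the hsDicer mean, and at 29.96% and 24.4% within replicates, so lower in both. The log2 difference was -1.79 (SE 0.80, 95% interval -3.39 to -0.19), with an unadjusted p of 0.0250 and an adjusted p of 1 by edgeR, so it did not pass over all arms. Of 539 arms 0 were called (0%), 12 had an unadjusted p under 0.05, and DESeq2 called 24. Over its alternatives the difference ran from -3.34 (without Y971A/Y972A replicate 1) to -0.49 (without hsDicer replicate 1). The difference was larger among reads that ended at or before the usual end. These were at 21.2% of the hsDicer mean (21.7% and 18.9% within replicates). Reads that ended past the usual end were together at 73.3% (82.5% and 50.8%), but not all of them were lower. Those that ended at position 41 were at 60.3% (68.5% and 38.7%). Those that ended at position 44 or 45 were at 318% (506% and 167%), so higher in both replicates, and this was not tested. The usual 3' end took 58.2% and 43.3% with Y971A/Y972A and 67.3% and 59.2% with hsDicer, groups that did not overlap, with p = 0.333 by the exact 2-sided permutation test, the smallest it allows. Reads past the usual end took 45.6% and 51.7%, above the 18.03% and 28.5% with hsDicer.

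hsDicer against WT asked how far human Dicer restores miR-21a in mouse cells. miR-21a-5p differed by -0.54 (SE 0.78, 95% interval -2.10 to 1.02), with an adjusted p of 1 by edgeR. Of 539 arms 0 were called (0%), 6 had an unadjusted p under 0.05, and DESeq2 called 18. hsDicer stood at 91.3% of WT in replicate 1 and at 34.9% in replicate 2. TMM scaling turned the difference to 0.14, and without hsDicer replicate 2 it was 0.13. The usual 3' end took 67.3% and 59.2% with hsDicer and 64.6% and 57.8% in WT (exact permutation p = 0.667). The 27-nt and 28-nt forms summed to 258 and 323 CPM in hsDicer libraries and to 0.173 and 40.7 CPM in WT libraries, higher with hsDicer in both replicates and not tested.

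For the 3p arm the fits could show little, because replicate 1 held so few reads. The log2 differences were 0.43 (SE 4.23) for K70A against hsDicer, -1.49 (SE 4.31) for Y971A/Y972A against hsDicer and -1.84 (SE 4.36) for hsDicer against WT, each with an adjusted p of 1 by edgeR. Tests of the 5p to 3p ratio gave an adjusted p of 1 in these 3 comparisons, with 0 of 183 hairpins called (0%), 0, 1 and 0 at an unadjusted p under 0.05, and standard errors over 11 on the log2 scale. These fits could not show a change of the 3p arm. WT replicate 1 held 0 3p reads beside 1061753 5p reads, and WT replicate 2 held 1894 beside 835767. The cause of this gap between replicates was not tested.

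Over the 16 libraries, the arms whose log2(CPM + 1) followed miR-21a-5p most closely, of 90 arms with 100 CPM or more on average, were let-7b-5p (Pearson r = 0.945), miR-30e-5p (0.938), let-7a-5p (0.935), miR-125b-5p (0.934) and let-7i-5p (0.928). All are 5p arms. The libraries are shared by both sides of each correlation and fall into groups with and without RNase IIIB activity. How much of each coefficient comes from differences between groups was not tested, and the coefficients carry no test. Of these, let-7i-5p differed most between KO libraries, at 1440 CPM in replicate 1 and 22.1 CPM in replicate 2. It stood at 38.3 and 31.3 CPM with D1320A/D1709A and at 38.98 and 21.4 CPM with D1709A, so KO replicate 1 alone was high.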

How the data were processed

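Per the labels' protocols, Trizol was used for total RNA, a gel slice of 15 to 50 nt for size selection, and an Illumina small RNA protocol for libraries. The authors deposited counts, that is, each distinct read with the adapter still on it and how often it was sequenced, with no header. How reads were collapsed is not given in the sources used here.

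Adapter was trimmed on a match of 12 bases, or of at least 5 bases ending the read. Inserts of 15 nt or more scaled each library. Perfect matches of 18 to 26 nt inserts were sought in 1174 hairpins of GENCODE release M21 (GRCm38), with 1087 names, and each read went to the arm on whose side of the hairpin midpoint their centre lay; reads shared between names were left out, and none of these matched Mir21a. Of 576 arms, 539 reached a total of 20 reads and were tested with edgeR 4.0.16 in R 4.3.3, over all 16 libraries without a block (common biological coefficient of variation 2.10), and 183 hairpins in the ratio test. Standard errors are approximate. DESeq2 1.42.0 and limma 3.58.1 served as alternatives, and Python 3.11.15 with scipy 1.17.1 for counting and permutation. snoRNA and snRNA reads matched 2890 transcripts. Reads are not separate molecules, so limits from counts cover counting error only. Sequences of mature arms are from RefSeq.

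Besides both miR-21a arms, the rule names the 5 arms of highest r with miR-21a-5p and the 3 on each side of it in the D1320A rank; arms ahead of it in KO and with D1320A/D1709A, let-7i-5p by library and the arms that end past their usual ends more often were added after their values were seen. The member, lists, tests and alternatives were chosen with earlier results of these data known.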

Additional observations from a re-analysis of the deposited data

How the results depend on the processing

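Of 246 values recomputed under alternatives, 187 kept their direction and their side of the threshold or moved by less than the spread between replicates, 38 moved further and 21 turned direction; no tested difference passed the threshold under any alternative run. The cause of these moves was not tested. DESeq2 called 16, 24 and 18 arms for K70A against hsDicer, Y971A/Y972A against hsDicer and hsDicer against WT, where edgeR called 0. For the 3p arm, K70A against hsDicer was -0.65 with TMM and -0.26 with DESeq2, and Y971A/Y972A against hsDicer was 0.30 with reads of 15 to 30 nt and up to 2 unmatched 3' bases. TMM turned miR-21a-5p in hsDicer against WT to 0.14. The 5p to 3p ratio with 15 to 30 nt reads was 0.18 for K70A against hsDicer and -0.35 for hsDicer against WT, and limma with pseudocounts of 0.5 and 5 gave -0.034 and -0.039 for the last.

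With each library left out in turn, miR-21a-5p ran from -1.01 to 1.18 for K70A against hsDicer, from -3.34 to -0.49 for Y971A/Y972A against hsDicer and from -1.84 to 0.13 for hsDicer against WT. The 3p arm ran from -7.41 to 11.04, -10.62 to 9.11 and -12.45 to 10.60, and the ratio from -8.83 to 4.75, -8.96 to 6.22 and -8.12 to 7.99, in the same order. Replicates share a number in the labels. With the replicate block, miR-21a-5p was at -0.014, -1.85 (adjusted p = 0.386 by edgeR) and -0.83, and 0 arms were called in each comparison. The deviations of same-numbered libraries had an r of 0.0802 to 0.445 (median 0.200) over 28 pairs of groups and 91 arms, over 0.1 in 27 pairs. Pairing was to be assumed only if all pairs passed 0.1, so the fits reported have no block, although replicate 1 was the higher for miR-21a-5p in every group.

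The log2 level over hsDicer (main values -4.10 for KO, -4.15 for D1320A/D1709A, -3.13 for D1320A and -5.35 for D1709A) depended most on scaling. As a share of miRNA arm reads it was 1.00 in KO, 1.54 with D1320A/D1709A, 0.0030 with D1320A and -2.92 with D1709A, and against snoRNA and snRNA reads -4.91, -5.23 and -4.15 for KO, D1320A/D1709A and D1320A. With 15 to 30 nt reads KO was at -4.29 and D1320A/D1709A at -3.93, so their order turned. Within single replicates it ran from -4.12 to -4.10 in KO, -4.44 to -3.36 with D1320A/D1709A and -3.47 to -2.26 with D1320A. The 3p arm as a share of miRNA arm reads was at 3.80 in KO and 3.17 with D1320A/D1709A, and at 3.001 for D1320A/D1709A with 15 to 30 nt reads, which take in the reads with an added A of 1 library. Reads of 15 to 30 nt also put the 5p share of arm reads at 97.3% with D1320A/D1709A and 99.6% with Y971A/Y972A, and the usual 3' end at 4.81% with D1320A/D1709A and 8.23% with D1709A.

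Counted from position 42 on, reads past the usual end were 25.7% in KO (0.0857% and 51.4% in its libraries), 36.8% with D1320A/D1709A, 10.1% with D1320A, 45.7% with D1709A, 1.53% with K70A, 12.5% with Y971A/Y972A, 1.66% with hsDicer and 0.0684% in WT. From 3 nt past the site, 5p-extended reads stood in the same order at 383, 1073, 381, 603, 339, 1117, 335 and 26.5 CPM, where KO is the mean of 2.81 and 763 CPM. With 1 adapter base or more, 3p-extended reads with hsDicer were at 0.0347 CPM. The 3p arm is the least certain, with 0 to 24 reads in replicate 1 libraries, which hold more 5p reads than those of replicate 2; the cause was not tested.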
